A study of Mus musculus with 36 samples.

Results

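GABA-A receptor subunits were examined in the anterior cingulate cortex (aCC) as 7 genes: Gabra2, Gabra3, Gabra4, Gabra5, Gabrb1, Gabrb2 and Gabrd. They are a list of named genes among the 52636 genes of the deposited table, which holds 19 GABA-A receptor subunit genes. RNA was sequenced from punches of the right aCC of 36 female mice aged 8 to 11 weeks, with 1 library per mouse. The strain is labelled C57BL/6NTac-Brd1 for all of them, and the wild-type mice were litter-matched to the Brd1+/- mice. Saline was given to 8 wild-type mice (the WT vehicle group) and to 9 Brd1+/- mice (Brd1+/- vehicle), and imipramine to 10 wild-type mice (WT IMN) and to 9 Brd1+/- mice (Brd1+/- IMN). Imipramine is a tricyclic antidepressant and was injected at 10 mg/kg under the skin. Every mouse, saline controls included, was injected on 2 days, with a tail suspension test after the first injection and an open field and a forced swim test after the second, before its brain was taken. The Brd1+/- mice come from 1 mouse line and carry a constitutive targeted deletion in 1 copy of Brd1 in all tissues. The study asked which transcripts differ between Brd1+/- and WT mice and how imipramine acts on them.

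The GABA-A receptor is the chloride channel through which GABA inhibits neurons quickly. It is built from subunits of several classes, usually alpha and beta subunits with a gamma or a delta subunit, and the subunit mix sets where the receptor sits and which drugs act on it. Gabra2 and Gabra3 encode α2 and α3, which are found mainly in synaptic, benzodiazepine-sensitive receptors. Gabra4 encodes α4, which with the δ subunit encoded by Gabrd forms receptors outside synapses that carry tonic inhibition and respond to neurosteroids. Gabra5 encodes α5, the alpha subunit of many other receptors outside synapses, while Gabrb1 and Gabrb2 encode the β1 and β2 subunits.

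The label of the tissue and of the targeted gene were checked first. All 6 excitatory neuron markers, all 7 interneuron markers and all 6 upper-layer and 7 deep-layer cortical markers had a median of at least 1 TPM (a level per transcript length and per library total), whereas 0 of the 10 choroid plexus markers did. The same level was reached by 11 of 12 striatal markers and by all 7 astrocyte, 10 oligodendrocyte and 7 microglia markers. It therefore cannot tell cortex from striatum. Brd1 lay between 22.6 and 31.9 TPM in WT vehicle and between 13.8 and 20.9 TPM in Brd1+/- vehicle, so these groups did not overlap. In the IMN groups it ran from 17.9 to 27.8 TPM in WT and from 13.5 to 19.4 TPM in Brd1+/-. Over both treatments Brd1 was lower in Brd1+/- by 0.54 on the log2(TPM + 0.5) scale (SE 0.067), and limma gave an adjusted p of 2.83e-05 (Benjamini-Hochberg over 25572 tested genes). It was the 1 gene called in that comparison, or 0.00391% of those tested. The 4 libraries with the lowest median correlation to the others (0.966 to 0.970, against 0.971 to 0.979 for the rest) were WT vehicle 1, Brd1+/- vehicle 6, Brd1+/- vehicle 7 and Brd1+/- IMN 6. WT vehicle 1 and Brd1+/- IMN 6 had high oligodendrocyte scores (7.00 and 7.29, against a median of 4.83 over all libraries), where a score is the mean log2(TPM + 0.5) of a marker list. Brd1+/- vehicle 6 had the highest striatal score (6.05) and choroid plexus score (4.67), and Brd1+/- vehicle 7 the lowest excitatory neuron score (6.83). Each comparison was also run without these 4 libraries.

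All 7 genes had a level above 0 in every library. These are bulk punches, in which fewer cells of a type and less RNA per cell cannot be told apart. Gabra3 was the most abundant of them, at 95.02 ± 11.5 TPM (mean ± SD, n = 36), and was the highest of the 7 in 34 of 36 libraries. Gabrb2 (61.8 ± 14.8 TPM, n = 36) and Gabra4 (56.8 ± 5.28 TPM, n = 36) followed, and their order did not differ beyond the spread, with Gabrb2 above Gabra4 in 26 of 36 libraries (p = 0.225, permutation test on paired log2 ratios, two-sided, 100000 draws). Gabra5 (49.9 ± 12.8 TPM, n = 36) and Gabra2 (49.7 ± 12.2 TPM, n = 36) could not be ordered either, with Gabra5 above Gabra2 in 17 libraries and below it in 19 (permutation p = 0.949). Gabrd stood at 40.4 ± 7.48 TPM (n = 36) and Gabrb1 at 24.1 ± 4.18 TPM (n = 36), the lowest of the 7 in 34 of 36 libraries. The other neighbours in this order differed, with permutation p between 1e-05, the smallest the draws can give, and 0.00408. Together the 7 genes summed to 378 ± 34.0 TPM (n = 36), of 839 TPM on average for all 19 subunit genes. Of the 12 other subunit genes, 5 had a median above 1 TPM, among them Gabrg3 (median 11.9 TPM) and Gabrg1 (median 7.61 TPM), which encode gamma subunits. The ε, θ and ρ2 subunit genes Gabre (median 0.09 TPM), Gabrq (0.25 TPM) and Gabrr2 (0.10 TPM) were near 0. Gabra6, Gabrp, Gabrr1 and Gabrr3 each had a median of 0.0 TPM, and Gabrp, which encodes the π subunit, was listed at 0 in all 36 libraries.

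The members Gabra2, Gabra4 and Gabrb1 lie in one stretch of chromosome 5 (GENCODE positions on GRCm38). Gabra2 spans 5:70957597-71095849 and Gabra4 5:71569749-71658308, both on the minus strand, and Gabrb1 spans 5:71658113-72149037 on the plus strand. By these positions the 5′ ends of Gabra4 and Gabrb1 overlap over 196 bases, of which 46 are exonic in both genes, or 0.756% of the exon bases of Gabra4. The RefSeq promoter window of Gabrb1 printed below (71657671 to 71657970) lies before this Gabrb1 start and within the span of Gabra4. Gabra5 lies on chromosome 7 (57407672 to 57510059, minus strand) and shares 148 exon bases, 4.98% of its exons, with a gene annotated on the opposite strand. Since strand use in the quantification is not given in the sources used here, reads in those shared bases cannot be told apart. Gabrb2 (11:42419757-42629028, plus strand), Gabrd (4:155384980-155398112, minus strand) and Gabra3 (X:72432681-72656848, minus strand) share no exon base with a gene on the other strand.

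RefSeq promoters on GRCm38.p6 (250 bases before to 50 after a start site) were found for 6 of the 7 members, all except Gabrd, with 10 entries in all. Entries of 5 genes are printed. The chromosome 5 genes Gabra2, Gabra4 and Gabrb1 were taken because Gabra4 and Gabrb1 start head to head while Gabrb1 varied most closely with Gabra2. Gabra5 was added because it varied most closely with the deep-layer markers, and Gabra3 as the most abundant of the 7 members. Both strands were searched for a TATA box (TATAAA), a GC box (GGGCGG), a cAMP response element (TGACGTCA) and an EGR site (GCGTGGGCG), and capitals mark a match on either strand. The windows printed are Gabra2 at chr5:71095800-71096099 (minus strand), Gabra4 at chr5:71658259-71658558 (minus), Gabrb1 at chr5:71657671-71657970 (plus), Gabra5 at chr7:57510010-57510309 (minus) and Gabra3 at chrX:72656870-72657169 (minus).
Gabra2: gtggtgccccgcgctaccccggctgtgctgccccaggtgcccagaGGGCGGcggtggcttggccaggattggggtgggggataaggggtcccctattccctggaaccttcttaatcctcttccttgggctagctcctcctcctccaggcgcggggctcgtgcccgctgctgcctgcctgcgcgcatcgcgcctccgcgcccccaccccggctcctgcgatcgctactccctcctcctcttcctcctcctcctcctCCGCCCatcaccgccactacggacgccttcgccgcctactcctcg
Gabra4: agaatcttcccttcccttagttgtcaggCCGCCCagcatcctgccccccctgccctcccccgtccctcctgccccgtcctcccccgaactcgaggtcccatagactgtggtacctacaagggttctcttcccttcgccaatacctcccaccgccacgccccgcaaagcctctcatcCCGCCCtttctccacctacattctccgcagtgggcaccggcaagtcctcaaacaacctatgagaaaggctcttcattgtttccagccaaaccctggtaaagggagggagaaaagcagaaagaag
Gabrb1: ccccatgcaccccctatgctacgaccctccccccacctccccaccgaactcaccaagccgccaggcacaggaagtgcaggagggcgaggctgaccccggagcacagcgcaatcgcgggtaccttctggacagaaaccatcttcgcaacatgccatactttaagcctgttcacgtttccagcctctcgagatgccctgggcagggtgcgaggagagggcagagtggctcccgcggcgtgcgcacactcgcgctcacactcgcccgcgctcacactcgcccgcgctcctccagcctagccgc
Gabra5: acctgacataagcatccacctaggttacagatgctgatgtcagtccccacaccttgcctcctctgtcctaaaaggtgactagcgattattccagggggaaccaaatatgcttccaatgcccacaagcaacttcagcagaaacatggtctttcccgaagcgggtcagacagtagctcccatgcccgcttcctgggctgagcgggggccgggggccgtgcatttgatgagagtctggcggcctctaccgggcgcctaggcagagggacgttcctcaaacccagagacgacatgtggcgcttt
Gabra3: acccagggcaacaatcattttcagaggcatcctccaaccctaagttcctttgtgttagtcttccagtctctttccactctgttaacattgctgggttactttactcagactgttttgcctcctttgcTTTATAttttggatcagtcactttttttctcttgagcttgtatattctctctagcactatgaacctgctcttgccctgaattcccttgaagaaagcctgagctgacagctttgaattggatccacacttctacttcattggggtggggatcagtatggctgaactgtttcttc

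The GC box occurred 2 times in each of the Gabra2 and Gabra4 windows and in neither the Gabrb1 nor the Gabra5 window printed, against 35.7% of all 32851 promoters in the table holding at least 1. The Gabra2 and Gabrb1 windows were the richest in CpG dinucleotides, with 25 each, against a median of 7 over all promoters. Gabra3 differed from both: its window held no CpG, 43.0% G and C, and 1 TATA box on the reverse strand, a motif found in 13.6% of promoters. No match to the cAMP response element (1.79% of promoters) or the EGR site (0.612%) was found in any of the 10 entries. These matches describe the letters of the windows and no binding was measured.

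Imipramine was compared with vehicle first within each genotype and then over both genotypes. None of the 7 genes passed an adjusted p of 0.05 in limma in WT mice (0 of 7, where 0% of all 25572 genes did), in Brd1+/- mice (0 of 7, against 0.00782%) or over both genotypes (0 of 7, against 0.274%). At an unadjusted p under 0.05 the counts were also 0 of 7 in each, where 6.6% of all genes tested passed in WT, 5.52% in Brd1+/- and 9.38% over both genotypes. Every exact or drawn permutation test of a member in these 3 comparisons also gave p over 0.05. The closest was Gabrd, and the plot of TPM by group shows each library.

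**Figure D1:**
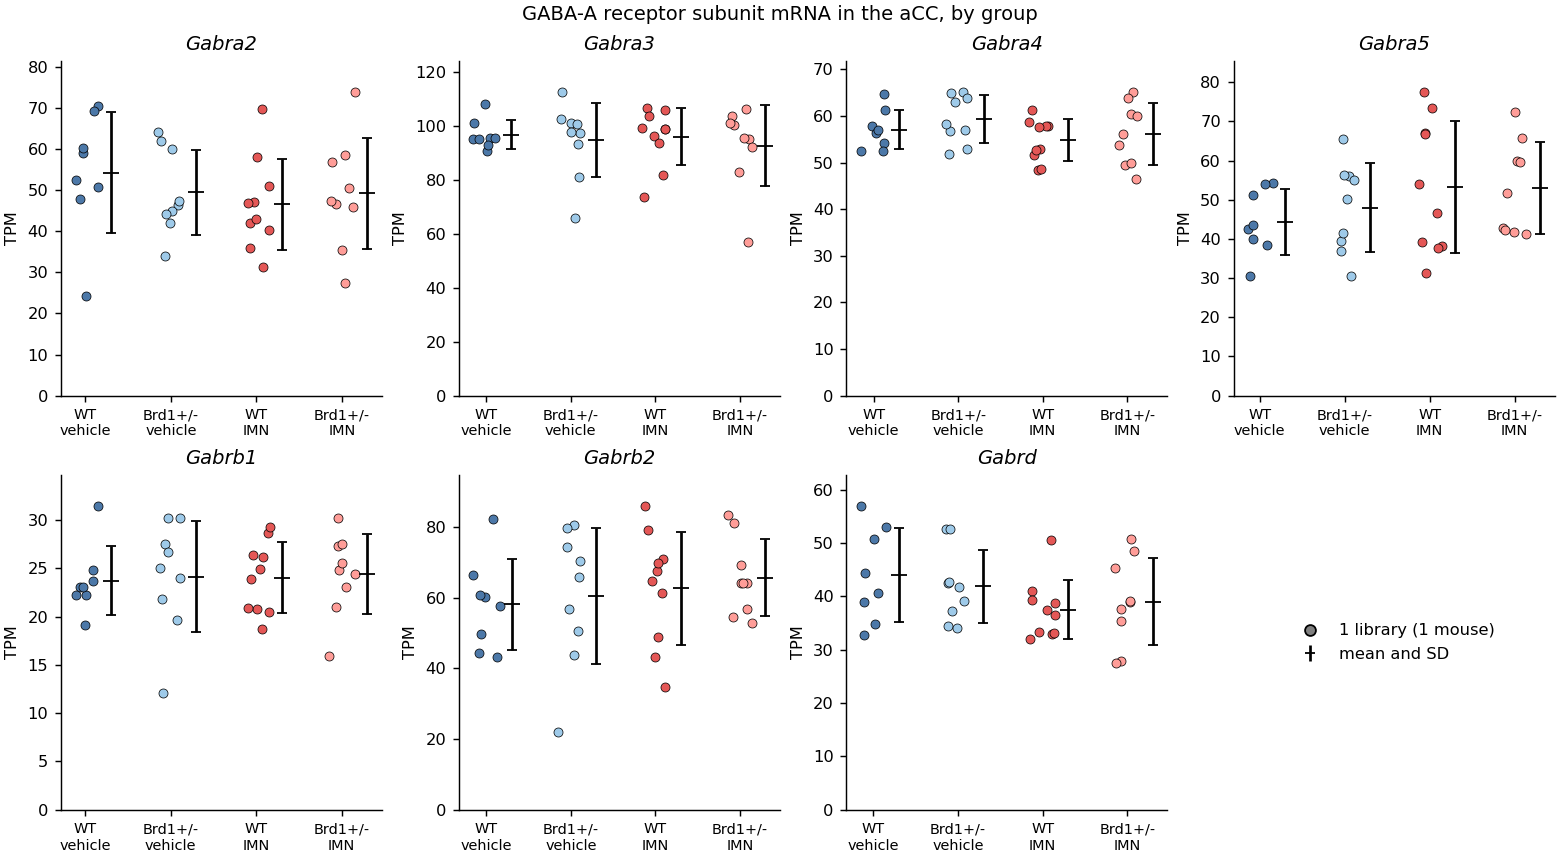
TPM of the 7 subunit genes in each library (points), with the mean and SD of each group (bars), with 1 point per mouse. The 4 groups overlap for every gene, and single libraries such as Brd1+/- vehicle 7 (Gabrb1 12.1 TPM, Gabrb2 21.9 TPM) fall far below their group.

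Gabrd, the δ subunit of tonic, neurosteroid-sensitive receptors, ranged from 32.8 to 57.0 TPM (median 42.6) in WT vehicle and from 32.0 to 50.6 TPM (median 37.0) in WT IMN. In Brd1+/- mice it ranged from 34.0 to 52.7 TPM (median 41.8) with vehicle and from 27.6 to 50.7 TPM (median 38.9) with IMN. The WT IMN libraries sat mostly low, 9 of 10 being below the WT vehicle mean, but so were 7 of 9 Brd1+/- vehicle libraries. Of the Brd1+/- IMN libraries, 6 of 9 were below the Brd1+/- vehicle mean, and the groups overlapped in both genotypes. The difference in log2(TPM + 0.5), IMN minus vehicle, was -0.22 (SE 0.11) in WT, with an unadjusted p of 0.0608 and an adjusted p of 0.773 from limma with Benjamini-Hochberg adjustment, and an exact permutation p of 0.0756. In Brd1+/- it was -0.11 (SE 0.12, adjusted p = 0.980, limma with Benjamini-Hochberg adjustment). Over both genotypes it was -0.17 (SE 0.083), which corresponds to a fold of 0.892 with a 95% interval of 0.794 to 1.00, and the adjusted p was 0.540 (limma, Benjamini-Hochberg). The drawn permutation test within genotypes gave p = 0.0586. With upper-layer, deep-layer and oligodendrocyte scores as covariates, a fit chosen after the data had been seen, the difference was -0.22 (SE 0.065, adjusted p = 0.135, limma with Benjamini-Hochberg adjustment).

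Gabra5, the α5 subunit of receptors outside synapses, ran the other way in its group means. It ranged from 30.5 to 54.3 TPM (median 43.0) in WT vehicle and from 31.3 to 77.7 TPM (median 50.4) in WT IMN. In Brd1+/- it ranged from 30.6 to 65.6 TPM (median 50.3) with vehicle and from 41.2 to 72.5 TPM (median 51.8) with IMN. The 4 WT IMN libraries at 66.7 to 77.7 TPM lay above all WT vehicle libraries and the other 6, at 31.3 to 54.0 TPM, lay within the WT vehicle range. Over both genotypes the IMN minus vehicle difference in log2(TPM + 0.5) was 0.18 (SE 0.12), a fold of 1.14 with a 95% interval of 0.965 to 1.34 and an adjusted p of 0.674 (limma, Benjamini-Hochberg), with a permutation p of 0.136. With the 3 scores as covariates the difference was 0.19 with a smaller error (SE 0.066), an unadjusted p of 0.00635 and an adjusted p of 0.223 (limma, Benjamini-Hochberg).

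Gabra2, the α2 subunit, had its lowest value in WT vehicle, where it ran from 24.2 to 70.5 TPM (median 55.8), against 31.4 to 69.8 TPM (median 45.03) in WT IMN. In Brd1+/- it ran from 34.1 to 64.2 TPM (median 46.4) with vehicle and from 27.4 to 74.0 TPM (median 47.4) with IMN. WT vehicle 1 held the lowest value of the 36. That library had a high oligodendrocyte score (7.00) and the lowest upper-layer score of all libraries (4.57), and their part in that value was not tested. The WT difference was -0.19 (SE 0.18) with all libraries and -0.35 (SE 0.13) without WT vehicle 1, with an unadjusted p of 0.0170 and an adjusted p of 0.355 in the second fit (limma, Benjamini-Hochberg). With upper-layer, deep-layer and oligodendrocyte scores as covariates it was -0.03 (SE 0.097, adjusted p = 0.985, limma with Benjamini-Hochberg adjustment). Over both genotypes the difference was -0.11 (SE 0.12), a fold of 0.926 with a 95% interval of 0.780 to 1.099 (adjusted p = 0.85, limma with Benjamini-Hochberg adjustment), and it changed sign to 0.05 (SE 0.066, adjusted p = 0.861, same test) with the 3 scores as covariates.

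Gabra3 and Gabra4 were the steadiest of the listed alpha subunits. Gabra3, encoding α3, ranged from 90.7 to 108.05 TPM (median 95.3) in WT vehicle and from 73.8 to 107 TPM (median 98.9) in WT IMN. In Brd1+/- mice its values were 65.8 to 113 TPM (median 97.9) with vehicle and 57.1 to 106 TPM (median 95.6) with IMN. Its fold for IMN over both genotypes was 0.981, with a 95% interval of 0.895 to 1.08. Gabra4, encoding the α4 partner of δ, ranged from 52.5 to 64.6 TPM (median 56.7) in WT vehicle and from 48.3 to 61.3 TPM (median 55.3) in WT IMN. It ran from 51.9 to 65.1 TPM (median 58.4) in Brd1+/- vehicle and from 46.5 to 65.3 TPM (median 56.2) in Brd1+/- IMN. Its fold over both genotypes was 0.952, with a 95% interval of 0.893 to 1.01 (adjusted p = 0.674, limma with Benjamini-Hochberg adjustment).

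The beta subunits showed no difference past the tests. Gabrb2, encoding β2, ranged from 43.2 to 82.2 TPM (median 58.9) in WT vehicle and from 34.6 to 86.0 TPM (median 66.1) in WT IMN. Its values were 21.9 to 80.4 TPM (median 65.8) in Brd1+/- vehicle and 52.9 to 83.5 TPM (median 64.2) in Brd1+/- IMN. For IMN over both genotypes its fold was 1.102 with the widest interval of the 7 genes, 0.918 to 1.32. Gabrb1, encoding β1, ranged from 19.2 to 31.5 TPM (median 23.1) in WT vehicle, from 18.7 to 29.2 TPM (median 24.4) in WT IMN, from 12.1 to 30.2 TPM (median 25.03) in Brd1+/- vehicle and from 15.97 to 30.2 TPM (median 24.9) in Brd1+/- IMN. Its fold was 1.02, with a 95% interval of 0.898 to 1.16. With the 3 scores as covariates the difference in log2(TPM + 0.5) was 0.13 (SE 0.056, adjusted p = 0.361, limma with Benjamini-Hochberg adjustment).

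Brd1+/- mice were compared with WT in the same way, and since each group enters one comparison of genotype and one of imipramine, these comparisons share libraries. With vehicle 0 of the 7 members passed an adjusted p of 0.05 in limma, where 0% of all genes tested did, and 0 of 7 passed an unadjusted p of 0.05, where 3.75% did. Under IMN the counts were 0 of 7 (0% of all genes) and 0 of 7 (3.23%). Over both treatments they were 0 of 7 (0.00391% of all genes) and 0 of 7 (3.62%), and no permutation test of a member gave p under 0.05. The Brd1+/- minus WT differences over both treatments lay between -0.05 for Gabra3 (SE 0.066) and 0.06 for Gabra5 (SE 0.12) in log2(TPM + 0.5). The 95% intervals of the folds ran from 0.879 to 1.06 for Gabra3, 0.967 to 1.096 for Gabra4, 0.835 to 1.18 for Gabra2, 0.888 to 1.23 for Gabra5, 0.884 to 1.14 for Gabrb1, 0.863 to 1.24 for Gabrb2 and 0.885 to 1.12 for Gabrd. By comparison the fold of Brd1 itself was 0.687, with an interval of 0.626 to 0.755. Within a single treatment Brd1 was not called either (adjusted p = 0.062 with vehicle and 0.882 under IMN, limma with Benjamini-Hochberg adjustment). A count of 0 of 7 in those comparisons therefore says little about the members. The Gabrb2 difference with vehicle took either sign depending on the fit. It was -0.0034 (SE 0.21) with all libraries and 0.29 (SE 0.14, adjusted p = 0.549, limma with Benjamini-Hochberg adjustment) without WT vehicle 1, Brd1+/- vehicle 6 and Brd1+/- vehicle 7. With the 3 scores as covariates it was -0.19 (SE 0.21, adjusted p = 0.9003, limma with Benjamini-Hochberg adjustment).

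**Figure D2:**
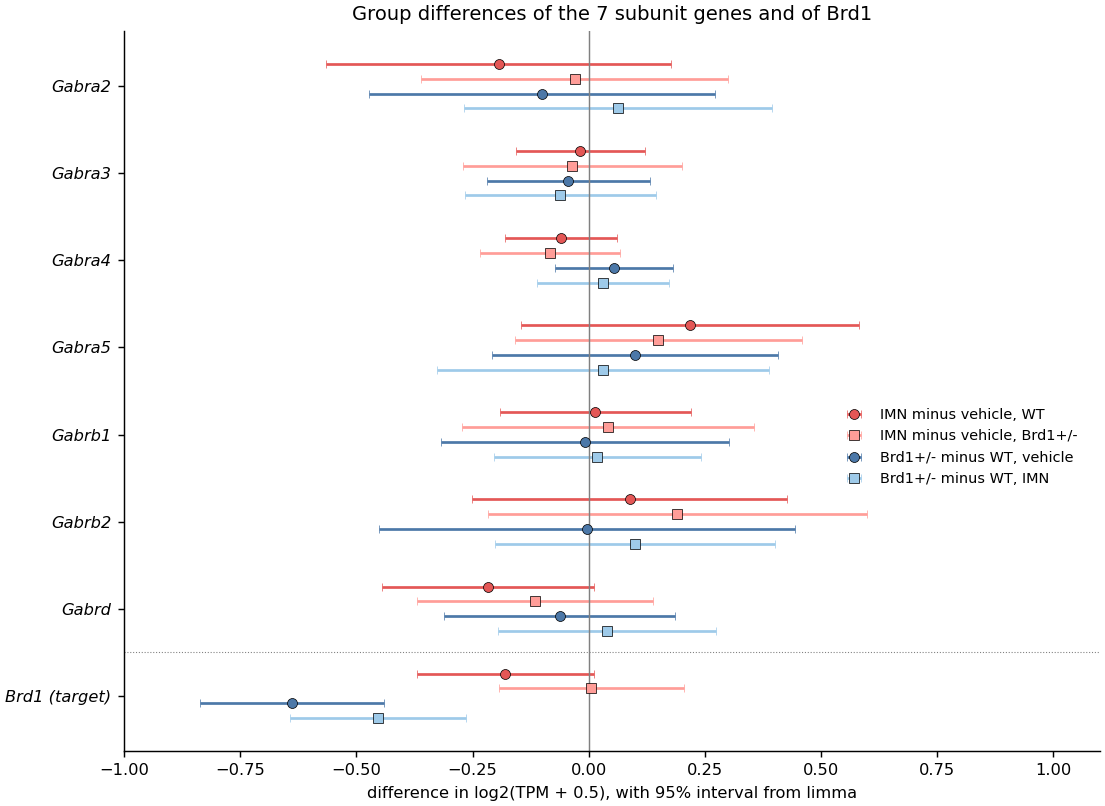
Differences in log2(TPM + 0.5) between groups for the 7 subunit genes and the targeted gene Brd1, with 95% intervals from limma, for imipramine within each genotype (red shades) and genotype within each treatment (blue shades). Every interval of a subunit gene includes 0, while Brd1 lies at -0.64 (vehicle) and -0.45 (IMN).

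The genotype by imipramine interaction was not called for any member (0 of 7, and 0% of all genes tested), and 0 of 7 passed an unadjusted p of 0.05, where 3.2% of all genes did. Its estimates ran from -0.07 for Gabra5 (SE 0.24) to 0.16 for Gabra2 (SE 0.25) on the log2 scale, the latter with a 95% interval of -0.34 to 0.66. For Gabra5 the interval ran from -0.55 to 0.41 and for Gabrb2 from -0.43 to 0.64. Differences between genotypes in the imipramine effect within these intervals are not excluded.

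The rest of the GABA system was followed through lists fixed by function, each given as the number of its tested genes that passed. None of 22 genes for anchoring, assembly and trafficking of the receptor, 8 for GABA synthesis, vesicle loading, uptake and breakdown, 5 for chloride transport, 5 of GABA-B receptors and 8 other subunits (of 12, the rest being below the filter on low values) passed an adjusted p of 0.05 (limma, Benjamini-Hochberg) in any of the 7 comparisons. For imipramine over both genotypes, 4 of the 22 anchoring and trafficking genes were lower and 1 higher at an unadjusted p under 0.05, where 5.48% of all genes tested were lower and 3.9% higher. The median difference of the 22 was -0.05, against -0.0023 for all genes tested. The 3 with the smallest p were Insyn2a (-0.40, SE 0.14, adjusted p = 0.262), Insyn1 (-0.15, SE 0.054, adjusted p = 0.281) and Gabarapl1 (-0.11, SE 0.046, adjusted p = 0.423), all from limma with Benjamini-Hochberg adjustment. Insyn1 and Insyn2a encode proteins of the inhibitory synapse. Insyn2a ranged from 5.23 to 12.3 TPM in WT vehicle and from 2.70 to 9.17 TPM in WT IMN. Its values were 6.73 to 12.1 TPM in Brd1+/- vehicle and 3.60 to 9.07 TPM in Brd1+/- IMN. In WT alone the smallest p belonged to Insyn1 (-0.16, SE 0.057), Nlgn2 (-0.21, SE 0.086), which encodes the adhesion protein of inhibitory synapses, and Gabbr1 (-0.13, SE 0.059), a GABA-B receptor subunit, with adjusted p of 0.637 to 0.752 (limma, Benjamini-Hochberg). None of these genes was called.

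Gabarapl1, which encodes a relative of the GABA-A receptor-associated protein with a role in autophagy, had the smallest p of the lists within Brd1+/- mice. It ranged from 433 to 572 TPM in Brd1+/- vehicle and from 382 to 484 TPM in Brd1+/- IMN, while the WT groups ran from 432 to 564 TPM with vehicle and from 415 to 559 TPM with IMN. The IMN minus vehicle difference in Brd1+/- was -0.23 (SE 0.058, unadjusted p = 0.000855, adjusted p = 0.488, limma with Benjamini-Hochberg adjustment). The interaction was -0.24 (SE 0.084, adjusted p = 1.00) and the Brd1+/- minus WT difference under IMN was -0.17 (SE 0.055, adjusted p = 1.00), both by limma with Benjamini-Hochberg adjustment. In Brd1+/- mice Insyn2a was also among the 3 list genes with the smallest p (-0.36, SE 0.15, adjusted p = 0.832), and so did Kctd12, an auxiliary subunit of GABA-B receptors. Kctd12 was above 0 in 14 of 36 libraries, where it reached 32.6 TPM, and is listed at 0 in the others, so no fold is given for it. Gabrq, at 0.255 TPM on average, was the 1 list gene with an unadjusted p under 0.05 for genotype over both treatments (-0.17, SE 0.073, adjusted p = 0.999, limma with Benjamini-Hochberg adjustment).

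Subunit shares were computed as the percentage of each gene in the summed TPM of the 7 in its library. Over the 36 libraries Gabra3 took 25.1% ± 1.97 (SD), Gabrb2 16.3% ± 3.34, Gabra4 15.1% ± 1.29, Gabra5 13.2% ± 2.98, Gabra2 13.1% ± 2.95, Gabrd 10.9% ± 2.67 and Gabrb1 6.36% ± 0.84. Among the 4 alpha genes of the list, Gabra3 held 37.8% ± 2.02 and never fell below 32.9% or rose above 41.7%. Between the listed beta genes, Gabrb1 and Gabrb2, Gabrb2 held 71.3% ± 5.24. Alpha and beta genes outside the list do not enter these shares, so they are not shares of a whole subunit class. None of 28 share differences (7 genes in 4 comparisons of groups) passed an exact permutation p of 0.05, two-sided. The smallest belonged to Gabra4, at 15.9% ± 1.57 (n = 9) in Brd1+/- vehicle and 14.8% ± 0.93 (n = 9) in Brd1+/- IMN, a difference of -1.099 percentage points (exact permutation p = 0.0747). For Gabra5 the share was 11.7% ± 2.12 (n = 8) in WT vehicle and 14.1% ± 4.00 (n = 10) in WT IMN (exact permutation p = 0.149), and for Gabrd it was 11.6% ± 2.24 (n = 8) and 10.1% ± 2.103 (n = 10) (exact permutation p = 0.159).

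**Figure D3:**
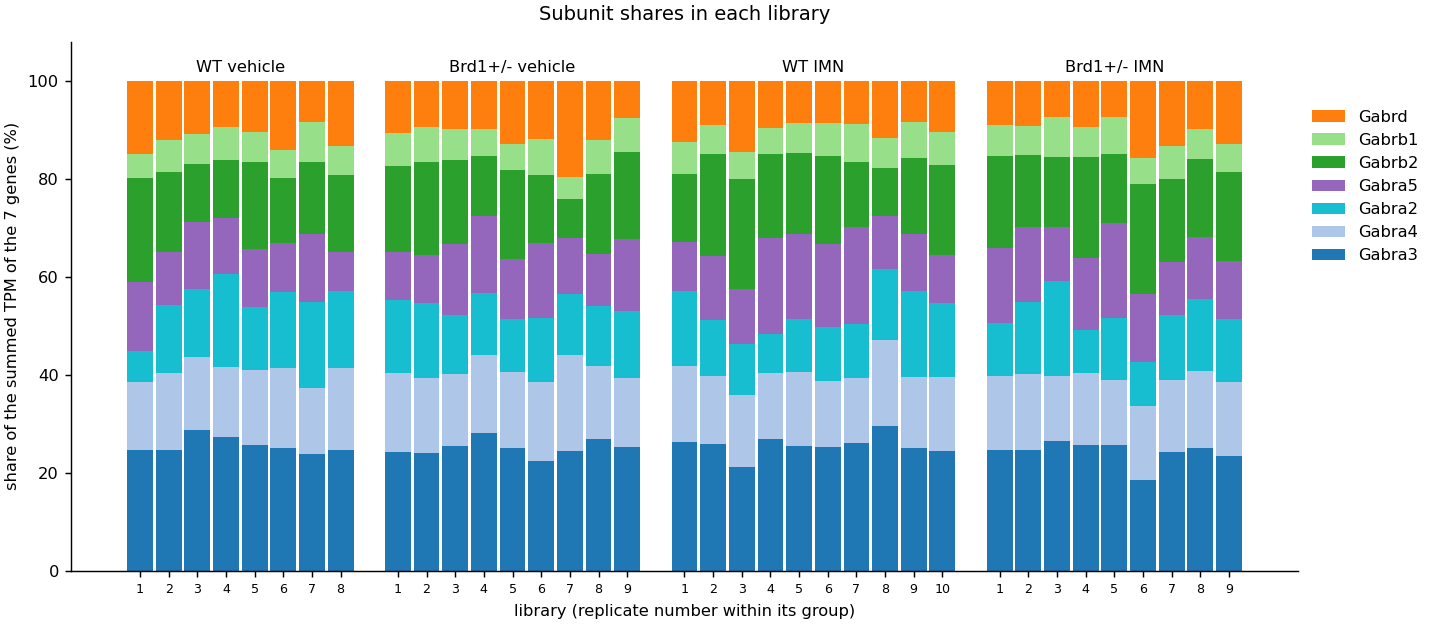
Share of each subunit gene in the summed TPM of the 7 genes (percent, stacked to 100) in each library, by group. The Gabra3 share is steady at 25.1% ± 1.97 (SD, n = 36), while the Gabra2 share runs from 6.26% in WT vehicle 1 to 19.6%, and the Gabrd share reaches 19.5% in Brd1+/- vehicle 7.

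The members varied between mice to very different degrees. The within-group SD of log2(TPM + 0.5) was 0.13 for Gabra4 and 0.20 for Gabra3, against a median of 0.21 over 9573 genes with a mean of 10 to 200 TPM. It was 0.41 for Gabrb2, 0.38 for Gabra2 and 0.37 for Gabra5, which placed these 3 genes at the 91.3, 89.5 and 88.1 percentiles of those genes. Gabrb1 (0.28) and Gabrd (0.26) lay between, at the 75.2 and 67.8 percentiles. Gabra2 thus ran 3.06-fold from its lowest to its highest library and Gabrb2 3.92-fold, whereas Gabra4 ran 1.40-fold. A single library, Brd1+/- vehicle 7, marks the low end of both listed beta genes: it held the lowest Gabrb1 and Gabrb2 of the 36 libraries, the second lowest Gabra3 and Gabra5, and the third highest Gabrd.

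How the members moved together was examined over the 36 libraries after the group means had been removed, for 21 pairs with permutation p from 100000 draws within groups and Benjamini-Hochberg adjustment over the 21. Gabra2 and Gabrb1 rose and fell together (Pearson r = 0.67, Spearman rho = 0.61, permutation p = 1e-05 and 0.00015, adjusted p = 0.00021 and 0.00157). Without the 2 libraries farthest from the median of Gabra2 r was 0.62, and it lay between 0.53 and 0.87 within the 4 groups. For every relation the 2 farthest libraries are those farthest from the median of the gene, or of the first gene by name in a pair. Gabrd ran against Gabrb1 (r = -0.63, rho = -0.60, permutation p = 2e-05 and 0.00011, adjusted p = 0.00021 and 0.00157, r = -0.60 without the 2 farthest libraries), with r between -0.80 and -0.57 within groups. It also ran against Gabra5 (r = -0.49, rho = -0.56, permutation p = 0.00172 and 0.00044, adjusted p = 0.00588 and 0.00308, r = -0.54 without the 2 farthest). These 3 pairs passed by r under every setting tried. By r, 9 pairs passed an adjusted p of 0.05 in all, 5 positive and 4 negative, and the negative 4 all involved Gabrd.

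The other 6 depended on scaling or on single libraries. Gabra3 with Gabrb1 gave r = 0.66 but rho = 0.35 (permutation p = 0.00059 and 0.0397, adjusted p = 0.00413 and 0.104), and r was 0.35 without the 2 farthest libraries, so it rests on them. Gabra3 with Gabra4 gave r = 0.55 and rho = 0.45 (permutation p = 0.00092 and 0.00881, adjusted p = 0.00483 and 0.0308) and 0.40 without the 2 farthest. Gabra3 with Gabra5 gave r = 0.50 and rho = 0.46 (permutation p = 0.00155 and 0.0059, adjusted p = 0.00588 and 0.0248) and 0.44 without them. Gabra3 with Gabra4 kept the call under median-ratio scaling and lost it without the 4 libraries that stand apart (r = 0.40, adjusted p = 0.107), while Gabra3 with Gabra5 did the reverse (r = 0.39, adjusted p = 0.0578 under that scaling). Gabra2 with Gabra3 (r = 0.44, rho = 0.25, permutation p = 0.00822 and 0.149, adjusted p = 0.0192 and 0.261) was 0.32 without the 2 farthest libraries. Gabra2 with Gabrd (r = -0.50, rho = -0.35, permutation p = 0.00397 and 0.0454, adjusted p = 0.0104 and 0.106) was -0.37 without them. Gabra3 with Gabrd (r = -0.50, rho = -0.47, permutation p = 0.00196 and 0.0047, adjusted p = 0.00588 and 0.0247) was -0.40 without them. All 3 of these lost the call both under median-ratio scaling and without the 4 libraries. The head-to-head neighbours Gabra4 and Gabrb1 were not called (r = 0.29, rho = 0.15, permutation p = 0.104 and 0.408, adjusted p = 0.137 and 0.451, r = 0.16 without the 2 farthest). Gabra2 and Gabra5 were not either (r = -0.17, rho = -0.19, permutation p = 0.319 and 0.269, adjusted p = 0.394 and 0.377, r = -0.19 without the 2 farthest).

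Marker scores for cell types and layers moved with several members. Of 70 relations between a member and 1 of 10 marker scores, 17 passed an adjusted p of 0.05 by r over the 70, and 12 of them passed under all 3 settings. Gabra5 rose with the deep-layer score (r = 0.84, rho = 0.83, permutation p = 1e-05 for both, adjusted p = 0.000175 and 0.000233, r = 0.82 without the 2 farthest libraries) and fell with the upper-layer score (r = -0.62, rho = -0.68, permutation p = 0.00014 and 8e-05, adjusted p = 0.00098 and 0.0008, r = -0.57 without the 2 farthest). It also fell with the astrocyte score (r = -0.71, rho = -0.72, permutation p = 2e-05 and 3e-05, adjusted p = 0.00028 and 0.00035, r = -0.65 without the 2 farthest). It rose with the excitatory neuron score (r = 0.69, rho = 0.68, permutation p = 1e-05 and 2e-05, adjusted p = 0.000175 and 0.00028, r = 0.65 without the 2 farthest) and the oligodendrocyte score (r = 0.46, rho = 0.49, permutation p = 0.00677 and 0.00513, adjusted p = 0.0316 and 0.0256, r = 0.42 without the 2 farthest). Gabra2 fell with the oligodendrocyte score (r = -0.77, rho = -0.74, permutation p = 1e-05 for both, adjusted p = 0.000175 and 0.000233, r = -0.68 without the 2 farthest) and with the interneuron score (r = -0.72, rho = -0.74, permutation p = 3e-05 and 1e-05, adjusted p = 0.00035 and 0.000233, r = -0.74 without the 2 farthest). Its relation to the upper-layer score (r = 0.63, rho = 0.48, permutation p = 0.00054 and 0.00393, adjusted p = 0.00344 and 0.0212) dropped to r = 0.40 without the 2 farthest libraries. It rose with the microglia score (r = 0.64, rho = 0.54, permutation p = 6e-05 and 0.00119, adjusted p = 0.000525 and 0.00882, r = 0.49 without the 2 farthest) and with the astrocyte score (r = 0.43, rho = 0.42, permutation p = 0.00969 and 0.0131, adjusted p = 0.0399 and 0.051, r = 0.48 without the 2 farthest), both called by r under all 3 settings. With the interneuron score Gabrd rose (r = 0.67, rho = 0.59, permutation p = 4e-05 and 0.00036, adjusted p = 0.0004 and 0.00315, r = 0.61 without the 2 farthest) and Gabrb1 fell (r = -0.67, rho = -0.68, permutation p = 1e-05 and 2e-05, adjusted p = 0.000175 and 0.00028, r = -0.63 without the 2 farthest). Gabra5, which also ran against Gabrd, had no called relation to that score (r = -0.02, rho = -0.02, permutation p = 0.899 and 0.901, adjusted p = 0.937 and 0.933, r = -0.13 without the 2 farthest). Gabra3 rose with the excitatory neuron score (r = 0.68, rho = 0.53, permutation p = 0.00012 and 0.00126, adjusted p = 0.000933 and 0.00882, r = 0.45 without the 2 farthest). Gabra4 passed with none of the 10 scores here, although it did with the upper-layer score under median-ratio scaling (r = 0.51, adjusted p = 0.0183). Gabrb1 and Gabrb2 rose with the excitatory neuron score (r = 0.59 and 0.55, adjusted p = 0.0174 and 0.0269). Gabra3 fell with the astrocyte score (r = -0.45, adjusted p = 0.0341). Each of these relations lost the call under another setting. Without the 4 libraries that stand apart Gabrd was also called with the upper-layer (r = 0.57, adjusted p = 0.00429) and deep-layer scores (r = -0.53, adjusted p = 0.012). The same setting called Gabrd with the striatal score (r = -0.47, adjusted p = 0.0226). Gabrb1 was called there with the striatal (r = 0.58, adjusted p = 0.00834) and choroid plexus scores (r = 0.48, adjusted p = 0.0226). So was Gabra3 with the upper-layer score (r = -0.50, adjusted p = 0.0435). Gabra5 and Gabrb2 were called there with the microglia score (r = -0.49 and -0.56, adjusted p = 0.0432 and 0.0133). With all libraries none of these passed by r. By rho Gabrb1 with the striatal, Gabrb2 with the microglia and Gabrd with the deep-layer score did (adjusted p = 0.0169, 0.0279 and 0.0437).

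The scores themselves overlapped between groups. All 10 oligodendrocyte markers had a median of at least 1 TPM, and their score ran from 3.15 to 7.00 in WT vehicle, 3.45 to 6.37 in Brd1+/- vehicle, 3.40 to 7.39 in WT IMN and 3.31 to 7.29 in Brd1+/- IMN. The interneuron score ran from 6.21 to 7.04, 6.59 to 7.30, 6.55 to 7.05 and 6.46 to 7.04 in the same order, a much narrower range. The deep-layer score ran from 2.62 to 4.95, 2.90 to 4.97, 2.67 to 5.14 and 3.10 to 4.81, and the upper-layer score from 4.57 to 5.95, 5.30 to 6.11, 4.76 to 5.97 and 4.81 to 6.199. The oligodendrocyte, deep-layer and upper-layer scores thus varied widely between punches of the same group, and the part of the scores in the values of single members was not tested beyond the fits with scores as covariates.

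**Figure D4:**
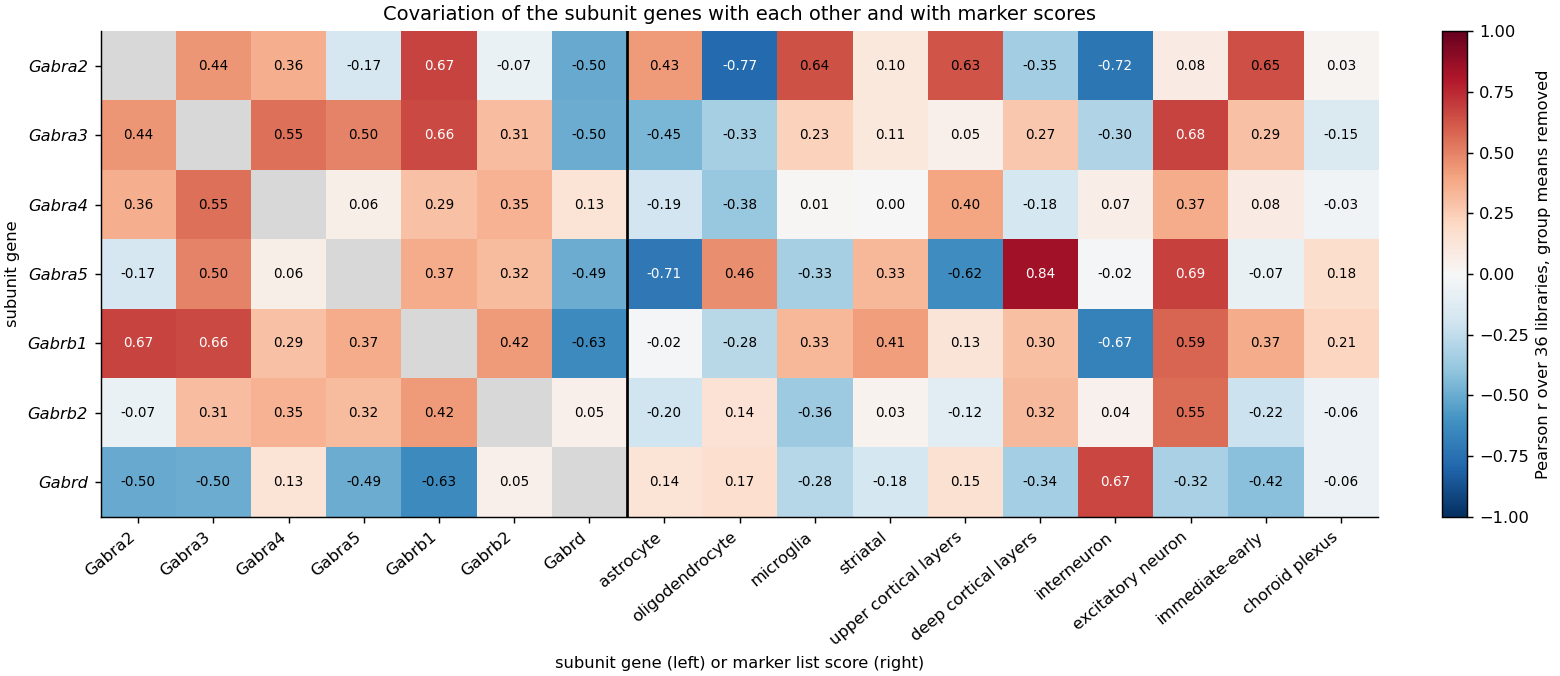
Pearson r over 36 libraries, with group means removed, between the 7 subunit genes (left block) and between each subunit gene and the scores of 10 marker lists (right block), on a colour scale from -1 to 1. Gabra5 with the deep-layer score (0.84) and Gabra2 with the oligodendrocyte score (-0.77) are the highest and lowest values in the map.

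The ratio of Gabra2 to Gabra5 is given as a description. It ran from 0.404 to 1.98 over the libraries, with medians of 1.28 in WT vehicle, 0.945 in Brd1+/- vehicle, 0.892 in WT IMN and 0.950 in Brd1+/- IMN, and it was over 1 in 7 of 8, 4 of 9, 4 of 10 and 4 of 9 libraries. On a log2 scale its r with the upper-layer minus the deep-layer score was 0.83 over the 36 libraries after removal of group means and 0.75 to 0.90 within the 4 groups. Both measures were put together from relations already seen in these libraries, mainly those of Gabra5, so no test is given. Gabra2 alone was not called with the deep-layer score (r = -0.35, rho = -0.33, permutation p = 0.0452 and 0.0578, adjusted p = 0.122 and 0.156, r = -0.22 without the 2 farthest), although it was under median-ratio scaling (r = -0.49, adjusted p = 0.0195). With the upper-layer score Gabra2 was not called without the 4 libraries that stand apart (r = 0.40, adjusted p = 0.129). The layer scores themselves did not differ between groups past an exact permutation test: for WT IMN against WT vehicle the upper-layer score differed by -0.16 (exact permutation p = 0.483) and the deep-layer score by 0.30 (exact permutation p = 0.439). The oligodendrocyte score, which ran against Gabra2, was 4.64 ± 1.17 in WT vehicle (n = 8) and 5.27 ± 1.19 in WT IMN (n = 10), a difference of 0.62 with an exact permutation p of 0.281. The smallest p of the score tests belonged to the 13 immediate-early genes, whose score was 5.82 ± 0.47 in WT vehicle (n = 8) and 5.34 ± 0.27 in WT IMN (n = 10), with an exact permutation p of 0.0154 (0.308 adjusted over 40 score tests). In Brd1+/- it was 5.80 ± 0.24 with vehicle (n = 9) and 5.30 ± 0.37 with IMN (n = 9), with an exact permutation p of 0.0023 (0.0921 adjusted). Over libraries with group means removed it moved with Gabra2 (r = 0.65, rho = 0.43, permutation p = 0.00078 and 0.0123, adjusted p = 0.00455 and 0.0508), with r = 0.38 without the 2 farthest libraries, and its part in the group values of Gabra2 was not tested.

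**Figure D5:**
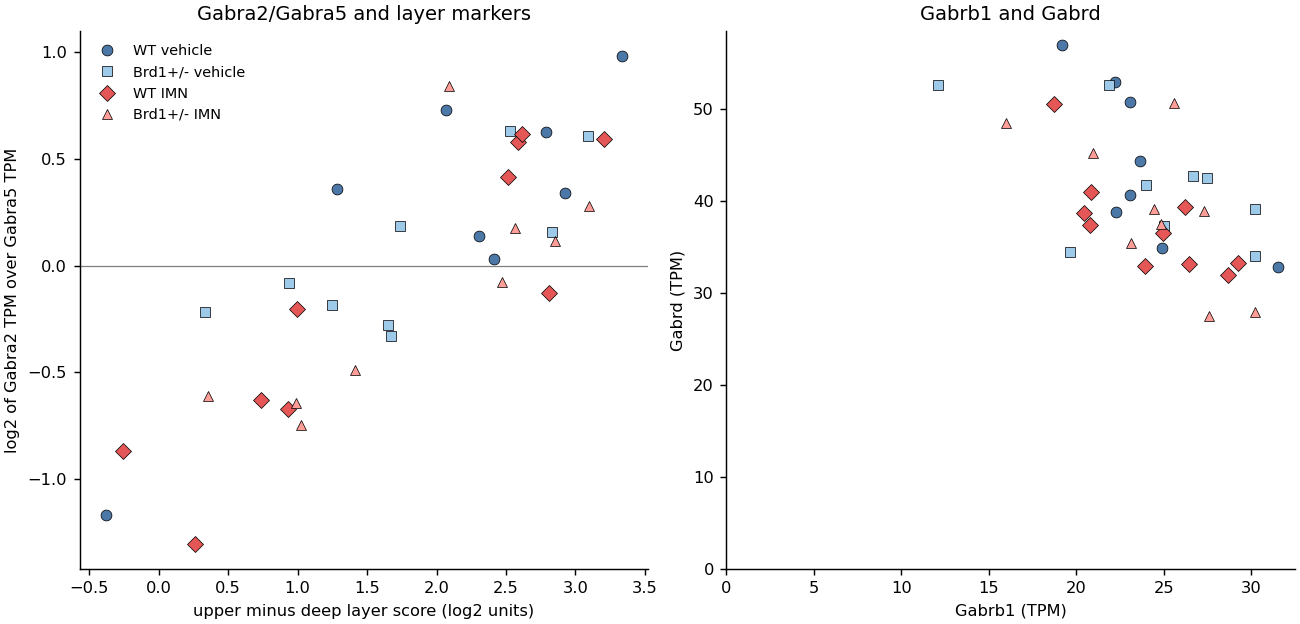
Left, log2 of the Gabra2 over Gabra5 TPM ratio against the upper-layer minus the deep-layer marker score (log2 units) in each of the 36 libraries, by group; right, Gabrd against Gabrb1 (TPM). In both panels the 4 groups overlap along 1 trend, rising on the left (r = 0.83) and falling on the right (r = -0.63). Both r are of log2 values with group means removed, while the panels keep the group means and the right panel shows TPM.

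Technical measures were set beside the members too. The share of TPM from mitochondrially encoded genes ran from 21.7% to 30.5% over libraries and was lower where Gabra5 was higher (r = -0.59, rho = -0.54, permutation p = 0.0004 and 0.00129, adjusted p = 0.0028 and 0.00903 over 14 relations, r = -0.50 without the 2 farthest). The median-ratio scaling factor of a library rose with Gabrb1 (r = 0.62, rho = 0.63, permutation p = 3e-05 and 8e-05, adjusted p = 0.00042 and 0.00112, r = 0.65 without the 2 farthest) and Gabra5 (r = 0.50, rho = 0.46, permutation p = 0.0036 and 0.00717, adjusted p = 0.0168 and 0.0335, r = 0.44 without the 2 farthest). It fell with Gabrd (r = -0.43, rho = -0.43, permutation p = 0.00693 and 0.0132, adjusted p = 0.0243 and 0.0462, r = -0.41 without the 2 farthest). The part of these measures in the members' values was not tested beyond the rescaled fits.

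For each member the 3 genes whose pattern over the 36 libraries was most like it were taken among 17715 genes averaging 1 TPM or more, by Pearson r with group means removed and with no test. Gabra2 was closest to Kctd4 (r = 0.94), Ccbe1 (0.94) and the semaphorin receptor gene Plxnc1 (0.94). Gabra5 was closest to Reep1 (0.92), the metabotropic glutamate receptor gene Grm8 (0.90) and Bcl11b (0.88), a transcription factor gene that is itself in the deep-layer list. Gabrb1 was closest to Samd8 (0.94), the sodium channel gene Scn3a (0.93) and Sesn3 (0.93). Gabrb2 was closest to Lnpep (0.91), Faxc (0.90) and Slc9a7 (0.90). Gabra3 was closest to Mtpn (0.89), the synaptic vesicle gene Sv2b (0.88) and Mmd (0.87). Gabrd was closest to Parva (0.83), Tmem215 (0.78) and Hipk4 (0.77), and Gabra4 to Fbxo34 (0.77), Ssx2ip (0.74) and 2810032G03Rik (0.71). No member was among the closest genes of another.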

How the data were processed

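RNA from aCC punches of 36 mice was sequenced, and each library was grouped by its label. Per the study's methods and the submitters' processing notes, single-end BGISEQ-500 reads were trimmed, aligned to GRCm38 with HISAT2 2.1.0 and quantified with StringTie 1.3.4. The deposited values are TPM, made by the authors for each gene and library and not scaled between libraries. TPM keep no depth, so errors come from the spread between mice. Strand use and multi-mapping reads are not given in the sources used here. Ensembl identifiers were matched to GENCODE symbols. Some subunit genes are not reported here and enter only counts and sums. Columns left unmatched numbered 0.

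Tests used limma 3.58.1 (R 4.3.3, trend) on log2(TPM + 0.5), two-sided, over 25572 genes that reached 0.1 TPM in 8 or more libraries, with Benjamini-Hochberg adjustment over all of them. Fold changes are on that scale, which understates changes of low genes. Comparisons of groups used the libraries of both groups only. Fits over both genotypes or treatments were additive, and the interaction used all 36 libraries. Permutation tests were exact between groups, or used 100000 draws (Python 3.11.15, numpy 2.4.6). Scripts were tested on simulated data. The members, lists and tests were chosen with earlier results of these data known. The rule for named genes took the 7 members, Brd1, the other subunits, up to 3 list genes per comparison with the smallest unadjusted p under 0.05, and the 3 genes most like each member. Alternatives were other pseudocounts, filters, scalings, array weights, a block for the replicate number, 1 fit of all libraries, and leaving out each library. Fits with marker scores or without 4 libraries, and rescaled marker relations, were chosen after seeing the data.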

Additional observations from a re-analysis of the deposited data

Results flagged for a closer look

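Of 28 sets of values (7 genes in 4 groups), 3 held a library whose gap to the nearest other was large for the range of its group (Dixon's criterion at 95%), and chance alone gives about 1 in 20. Gabra3 in Brd1+/- IMN 6 was 57.1 TPM, with the next lowest of its 9 libraries at 83.0 TPM. This library had the lowest median correlation to the others (0.966) and an oligodendrocyte score of 7.29, and the part of either in its Gabra3 level was not tested. Gabrb1 in WT vehicle 7 was 31.5 TPM, with the next highest of its 8 libraries at 24.9 TPM. Gabrd in WT IMN 3 was 50.6 TPM, with the next highest of its 10 libraries at 41.0 TPM. Without that last library the IMN minus vehicle difference of Gabrd in WT was -0.27 (SE 0.10, adjusted p = 0.772, limma with Benjamini-Hochberg adjustment), against -0.22 with it.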

How the results depend on the processing

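No member was called in any of 1778 alternative fits (49 pairs of member and comparison), where the adjusted p of limma with Benjamini-Hochberg adjustment was never below 0.135, and 24 fits had an unadjusted p under 0.05. These fits share most of their libraries, so the 24 are not separate results. For imipramine over both genotypes with scores as covariates, they include Gabrd, Gabra5 and Gabrb1 (unadjusted limma p = 0.00167, 0.00635 and 0.0242). In that fit 2746 of all 25572 genes tested had an unadjusted p under 0.05. In 128 fits an uncalled estimate changed sign. For Gabrd and imipramine over both genotypes the log2 difference ran from -0.22 to -0.13, and 11 of 36 fits without 1 library had an unadjusted p under 0.05. Same-numbered libraries of different groups had r of -0.263 to 0.262 between their deviations (51 pairs, 4 over 0.1). When the best match of each library was looked up in each other group, it had the same number 5 times. Paired mice need not have correlated deviations, so these r cannot decide whether the numbers mark pairs. Litter and batch were not tested. The replicate block called 0 members (smallest adjusted p 0.607, limma with Benjamini-Hochberg adjustment), and 37 genes in all instead of 70 for imipramine over both genotypes. That count of all genes ran from 37 to 191 over the settings and from 35 (without WT vehicle 3) to 170 (without WT vehicle 1) when 1 library was left out. For WT IMN against WT vehicle it was 0, and 34 without WT vehicle 1 or 35 without the 4 libraries that stand apart. For Brd1+/- IMN against Brd1+/- vehicle it was 2, and 0 to 1 under the alternatives. Other comparisons stayed within 0 to 3.

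Of the 28 share differences, 0 passed an exact permutation p of 0.05, and 1 did (Gabrd, WT IMN against WT vehicle, -0.88 percentage points, exact permutation p = 0.0445) with all 19 subunit genes as denominator. Without 1 library 0 to 2 passed: 2 without WT vehicle 1 (Gabra2 in both comparisons with WT vehicle), 2 without WT IMN 3 (Gabra3 and Gabrd), and 1 each without Brd1+/- vehicle 9 or Brd1+/- IMN 8 (Gabra4). The count of called pairs of members was 9, but 5 under median-ratio scaling and 4 without the 4 libraries that stand apart, and called pairs kept their sign. The cause was not tested. Marker relations numbered 17, against 18 and 21 under those settings. Spread between mice limits the folds: intervals of Gabrb2, Gabra5 and Gabra2 for imipramine over both genotypes reach 1.32, 1.34 and 0.780.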
